A study of Mus musculus with 13 samples.

Results

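Scavenger receptors and the proteins that mark and take up dying cells were followed in mouse adrenal glands before and after an induced loss of Star. The set held 10 genes, taken by symbol from the deposited transcript tables, and all 10 were found among the 14078 genes that the tables of the 3 groups share. Gas6 and Mfge8 encode secreted proteins that coat dying cells, Mertk, Axl and Stab1 encode receptors for such cells, Msr1, Cd163 and Mrc1 encode scavenger receptors, Cd5l encodes a secreted macrophage protein and Cd68 encodes a glycoprotein of macrophage late endosomes and lysosomes. The 10 genes were listed with 16 transcript models.

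Cells that die in a tissue expose phosphatidylserine, and bridging proteins bind that lipid with one end and a receptor on the phagocyte with the other. Gas6 bridges to the receptor tyrosine kinases Axl and Mertk, and Mfge8 bridges to integrins of the alpha v family. Scavenger receptors bind modified lipoproteins, sugars or haemoglobin complexes, and macrophages that have long lived in a tissue often carry Cd163, Mrc1 and Stab1. The adrenal cortex is known to hold resident macrophages between its steroid-making cells.

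The RNA came from adrenal glands of C57BL/6 mice, with 5 libraries from before TAM induction, 4 from 24 h after it and 4 from 8 weeks after it. TAM is the labels' abbreviation for the inducing agent, and the labels describe the times as times after Star knockout. The labels name neither the driver of the deletion nor the alleles, and give no word on whether libraries stem from different animals; p-values here speak only of the scatter among the libraries. The samples analysed here hold no TAM-treated mice with intact Star, so TAM, time and loss of Star cannot be told apart. Levels are deposited FPKM (fragments scaled to transcript length and library size), summed over a gene's transcript models, with the SD over libraries. Tests are edgeR's quasi-likelihood test on expected counts over all 14078 genes, and a gene was called where its Benjamini-Hochberg adjusted p was under 0.05. In whole glands, more cells of a type and more RNA per cell cannot be told apart.

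Listed reads per library ranged from 17331673 to 27309429. Star stood between 3207 and 4239 FPKM in the libraries from before and between 17.4 and 626 in the later ones. One library stood furthest apart. The library labelled 24 h replicate 3 held 83.0 FPKM of Gata4 and 49.2 of Wt1, against at most 6.81 and 3.31 elsewhere. These are gonadal and coelomic transcription factor genes, named after their values were seen. Its summed adrenal cortex list was 4338 FPKM, the lowest of the 24 h group, and its summed adrenal medulla list was 19.6 FPKM, the lowest of all libraries, while 24 h replicate 4 held 117. It also held 32.5 FPKM of Nr5a2 and 246 of Inha, genes that gonads express, against at most 1.16 and 54.5 elsewhere. Of genes that mark the adrenal cortex it held 1.07 FPKM of Cyp11b1, 2.42 of Cyp21a1 and 0.132 of Mc2r, where the other 24 h libraries held at least 969, 1391 and 109. These values go against its adrenal label, and which tissue it came from was not established. This touches every 24 h value below, and values without that library are given beside those that turn on it. The next highest Gata4, 6.81 FPKM, was in before replicate 1, against 0.567 to 0.955 in the other libraries from before. Before replicate 1 enters every comparison with the group from before.

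Of the 10 genes, 7 rose and none fell at 24 h against before, and 7 rose and none fell at 8 weeks against before. The same 7 genes rose at both times, namely Mertk, Axl, Mfge8, Msr1, Mrc1, Cd5l and Cd68. Over all genes tested 19.2% were called at 24 h (12.6% higher, 6.63% lower) and 36.9% at 8 weeks (20.5% higher, 16.4% lower). The median log2 fold change of the 10 genes was 1.30 at 24 h and 1.42 at 8 weeks, and that of all genes was 0.03 in both comparisons. Both comparisons share the libraries from before. Between 8 weeks and 24 h, Mfge8 was called higher and Cd5l lower, and 20.8% of all genes were called (10.1% higher, 10.6% lower). Without 24 h replicate 3, Stab1 was called as well in both comparisons that use the 24 h group, which made 8 of 10 higher than before at 24 h. Calls rose over the whole data too. Of all transcripts tested, 12.7% were called in either direction at 24 h against before with every library and 18.6% without that one. Counted per gene, 2708 of 14078 were called with every library and 1851 to 3998 with 1 library left out.

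**Figure D1:**
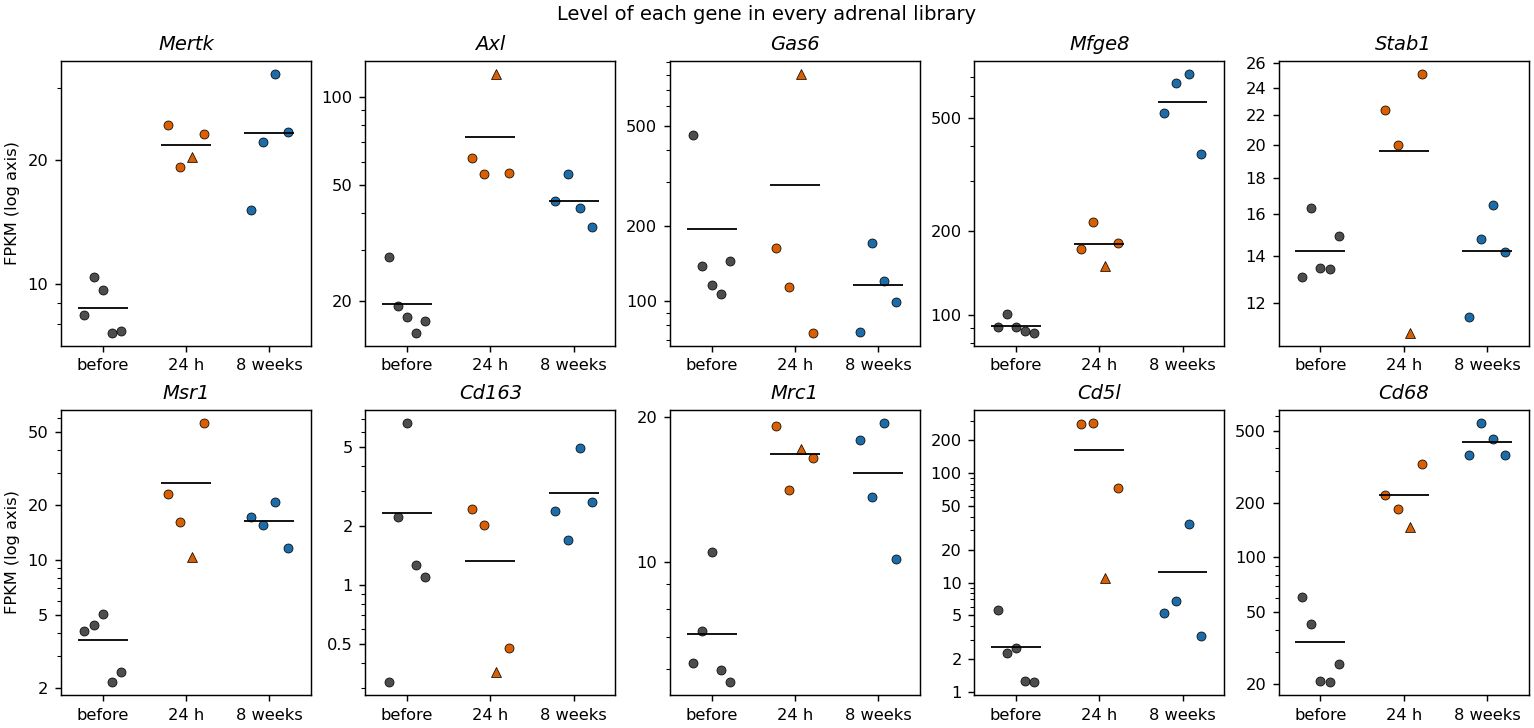
Level of each of the 10 genes in every library, in FPKM on a logarithmic axis, by group (5 libraries before, 4 at 24 h, 4 at 8 weeks). Points are libraries, the triangle is 24 h replicate 3 and lines are group means; the 8-week Mfge8 and Cd68 points lie above every other library, and the 24 h Cd5l points span 10.9 to 285 FPKM.

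Mfge8, on chromosome 7 from 79133768 to 79149060 of mm10 (minus strand), reached the highest mean level of the 10 genes at 8 weeks. In the libraries from before it stood at 90.6, 101, 90.9, 88.3 and 86.6 FPKM. At 24 h it stood at 172, 215, 150 and 181 FPKM, and at 8 weeks at 524, 668, 718 and 375 FPKM. The 3 groups did not overlap, and each later group lay above the one before it. On the log2 scale Mfge8 rose by 1.01 at 24 h (SE 0.22, adjusted p = 0.0051) and by 2.83 at 8 weeks (SE 0.22, adjusted p = 4.96e-06), and 8 weeks exceeded 24 h by 1.81 (SE 0.23, adjusted p = 0.00124).

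The 2 Mfge8 transcript models of the tables differ by 1 coding exon, exon 4 of 10 in the long model (NM_008594), which adds 37 codons to a reading frame of 426. The exon lies at chr7:79143278-79143388 (mm10, minus strand) and is known to encode a proline- and threonine-rich stretch between the EGF-like part and the discoidin domains, present in the long form that mouse macrophages and mammary epithelium make. It is shown 5′ to 3′ in capitals with 15 bases of the neighbouring exons on each side, because the change in Mfge8 below turns on it.
Mfge8 exon 4: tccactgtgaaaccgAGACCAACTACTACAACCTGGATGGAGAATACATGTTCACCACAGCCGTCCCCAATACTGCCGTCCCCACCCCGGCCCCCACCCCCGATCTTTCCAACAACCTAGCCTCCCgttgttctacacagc
Mfge8 junction without exon 4: tccactgtgaaaccggttgttctacacagc

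The long model went from a minor to the larger portion of Mfge8. It made up 7.45%, 8.77%, 8.23%, 6.52% and 6.54% of Mfge8 FPKM in the libraries from before, 25.5%, 21.6%, 17.3% and 17.8% at 24 h, and 55.1%, 54.3%, 69.0% and 53.1% at 8 weeks. Every 24 h share lay above every share from before and below every share at 8 weeks. The group means were 7.50% ± 1.00 (SD, n = 5), 20.6% ± 3.84 (n = 4) and 57.8% ± 7.45 (n = 4).

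Tested transcript by transcript with edgeR over 18738 transcripts, of which 28.4% were called at 8 weeks, the long model rose by a log2 fold change of 5.77 (SE 0.33, adjusted p = 3.49e-06) and the short model by 1.61 (SE 0.16, adjusted p = 3.91e-05) at 8 weeks. At 24 h the changes were 2.46 (SE 0.29, adjusted p = 0.000407) and 0.79 (SE 0.16, adjusted p = 0.00736), and without 24 h replicate 3 they were 2.62 (adjusted p = 0.000218) and 0.88 (adjusted p = 0.00271). In the authors' deposited table, which compares 8 weeks with before, the log2 ratio was 5.55 (q = 0.000133) for the long model and 1.45 (q = 0.000789) for the short one.

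The shift between the models was tested with edgeR's diffSpliceDGE, which compares each transcript's change with that of its gene. Relative to the whole gene, the long model rose by 2.03 on the log2 scale at 8 weeks (adjusted p = 1.5e-07), in a test that called 0.894% of 7715 transcripts. At 24 h it rose by 1.00 (adjusted p = 0.0109, 0.117% called), and between 24 h and 8 weeks by 1.03 (adjusted p = 0.0191, 0.143% called). Leaving out any 1 library kept the 8-week value between 1.95 and 2.08 with adjusted p at most 4.32e-06, while the other 2 comparisons reached adjusted p of 0.101 and 0.0881. An exact permutation test of the shares gave p = 0.0159, 0.0159 and 0.0286, the smallest values these group sizes allow, and an adjusted p of 0.107 over the 15 shares compared. Both tests were added after the data were seen, and the counts per model are estimates whose own uncertainty is not in either.

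**Figure D2:**
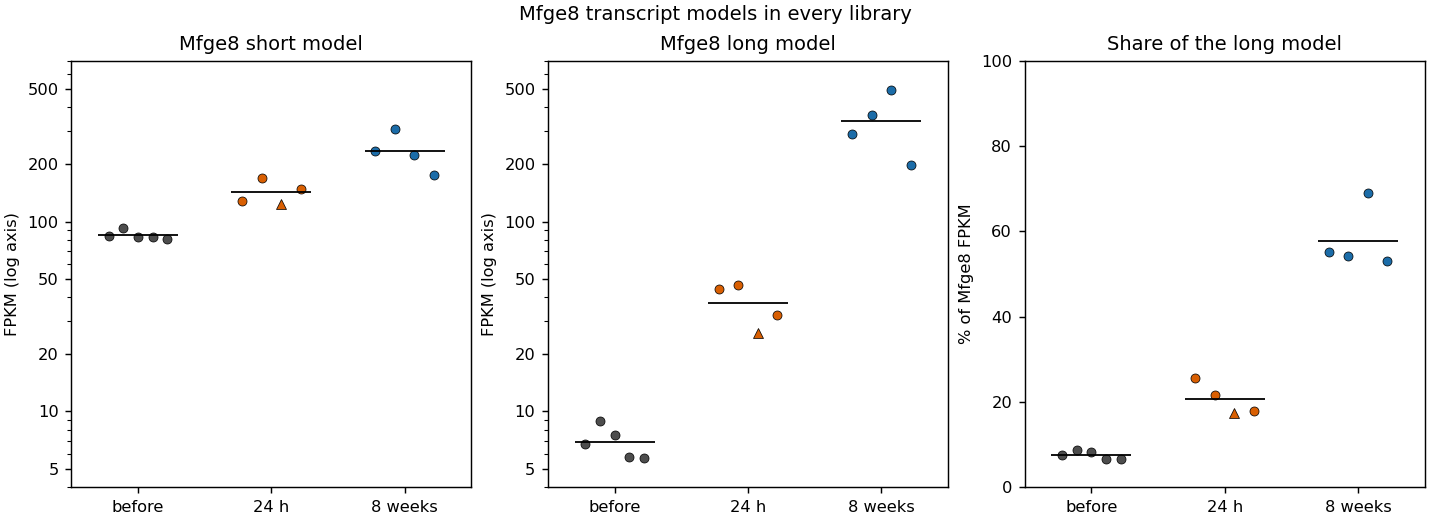
Mfge8 transcript models in every library: FPKM of the short and of the long model on a logarithmic axis, and the share of the long model in percent of Mfge8 FPKM. Points are libraries, the triangle is 24 h replicate 3 and lines are group means; the long model holds 6.52% to 8.77% before and 53.1% to 69.0% at 8 weeks.

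Gas6, the other bridging ligand, did not pass the test in any comparison. Its FPKM was 462, 138, 116, 106 and 145 before, 162, 114, 808 and 74.6 at 24 h, and 75.4, 171, 120 and 99.3 at 8 weeks. The groups overlapped throughout, and the 2 highest libraries, before replicate 1 and 24 h replicate 3, were also those with the most Gata4. Against before, the log2 difference at 24 h was 0.54 (SE 0.63, adjusted p = 0.603), and that at 8 weeks was −0.60 (SE 0.64, adjusted p = 0.482). Without 24 h replicate 3 the first was −0.65 (adjusted p = 0.334), and without before replicate 1 the second was 0.01 (adjusted p = 0.992). The part of those 2 libraries' other tissue markers in these values was not tested.

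Mertk and Axl, receptors that Gas6 engages, both rose at both times. Mertk, on chromosome 2 from 128698997 to 128802188 (plus strand), stood at 8.44, 10.4, 9.68, 7.62 and 7.68 FPKM before, 24.4, 19.3, 20.4 and 23.2 at 24 h, and 15.1, 22.1, 32.4 and 23.4 at 8 weeks. Every later Mertk library exceeded every library from before, and the 2 later groups overlapped. Mertk rose by 1.34 on the log2 scale at 24 h (SE 0.21, adjusted p = 0.00104) and by 1.56 at 8 weeks (SE 0.21, adjusted p = 0.000155), and 8 weeks against 24 h gave 0.22 (SE 0.23, adjusted p = 0.503).

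Axl, on chromosome 7 from 25756500 to 25788733 (minus strand), stood at 28.4, 19.3, 17.7, 15.6 and 17.1 FPKM before, 61.7, 54.6, 120 and 54.9 at 24 h, and 43.9, 54.5, 41.9 and 36.02 at 8 weeks. Each 24 h library lay above all others, and each 8-week library above all from before. Axl rose by 1.87 on the log2 scale at 24 h (SE 0.23, adjusted p = 0.000266), or 1.62 without replicate 3 (adjusted p = 8.53e-05), and by 1.27 at 8 weeks (SE 0.23, adjusted p = 0.000973). The difference between 8 weeks and 24 h, −0.60, did not pass the test (adjusted p = 0.0893). Axl reads were split among 3 models. The share of NM_001190975 varied within the 8-week group from 23.1% to 86.1%, and no comparison of that share had an adjusted p under 0.05. By edgeR per transcript at 8 weeks against before, NM_001190975 rose by 2.47 (adjusted p = 0.00812). NM_001190974 (0.25, adjusted p = 0.623) and NM_009465 (0.60, adjusted p = 0.299) did not pass that test. Relative to the whole gene, NM_001190975 did not pass either (0.82, diffSpliceDGE adjusted p = 0.389).

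Stab1, encoding stabilin-1, a phosphatidylserine receptor of sinusoidal endothelium and of resident-type macrophages, had a mean of 14.2 FPKM both before and at 8 weeks. It stood at 13.1, 16.3, 13.4, 13.4 and 14.9 FPKM before, 22.4, 20.0, 10.9 and 25.1 at 24 h, and 11.5, 14.8, 16.5 and 14.2 at 8 weeks. At 24 h, 3 libraries lay above all from before and replicate 3 below them. Neither time passed the test, with log2 differences of 0.51 at 24 h (SE 0.23, adjusted p = 0.143) and 0.14 at 8 weeks (SE 0.23, adjusted p = 0.655). Without 24 h replicate 3, whose summed endothelium list was the lowest of all libraries at 167 FPKM, Stab1 rose by 0.75 at 24 h (adjusted p = 0.00346) and fell by 0.64 from 24 h to 8 weeks (adjusted p = 0.013).

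Among 16 other genes of dying-cell uptake, 5 rose and 1 fell at 24 h, and 4 rose and 3 fell at 8 weeks. Over all genes, 12.6% were called higher and 6.63% lower at 24 h, and 20.5% and 16.4% at 8 weeks. The 8-week counts of this list were thus near the shares over all genes. The median log2 change was 0.37 at 24 h and −0.02 at 8 weeks. Cd300a, a phosphatidylserine receptor of myeloid cells, rose from 2.04 ± 1.13 to 13.03 ± 5.10 FPKM at 24 h and 18.0 ± 3.96 at 8 weeks (log2 fold change 2.72 and 3.28, adjusted p = 0.00052 and 5.47e-05). Timd4, a phosphatidylserine receptor of resident macrophages, rose at 8 weeks (log2 fold change 3.65, adjusted p = 0.00816), with 7.002 FPKM in replicate 3 and at most 1.16 in the other 8-week libraries. Megf10, an engulfment receptor best known from glia, rose at both times, by 1.44 (adjusted p = 0.0167) and 2.44 (adjusted p = 0.000363). Its level was low, with means of 0.26 FPKM before, 0.69 at 24 h and 1.30 at 8 weeks.

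The genes called lower against before were Dock1, Elmo1 and Itgb5, at 8 weeks about as large a share as over all genes. Dock1, which with Elmo1 activates Rac during engulfment, fell from 46.4 ± 9.40 to 15.7 ± 2.15 FPKM at 24 h and 9.80 ± 1.56 at 8 weeks (adjusted p = 0.000175 and 7.11e-06). Elmo1 fell at 8 weeks by 1.14 on the log2 scale (adjusted p = 0.000345), and Itgb5, the integrin beta 5 subunit that pairs with alpha v, fell by 0.63 (adjusted p = 0.00836). Itgav, the alpha v subunit, rose by 0.71 at 24 h (adjusted p = 0.00556) and was lower at 8 weeks than at 24 h by a log2 difference of −1.04 (adjusted p = 0.00261). Dock1 and Elmo1 are expressed by many cell types, and the summed cortex list stood at 18831 to 29523 FPKM before and 1701 to 4377 at 8 weeks. Its part in their change was not tested.

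Tyro3, the third receptor of the Axl family, and Thbs1, a matrix bridging protein, were called higher at 24 h (log2 fold change 1.58 and 3.35, adjusted p = 0.0318 and 0.0138), and both were far highest in one library. Without 24 h replicate 3 the log2 change of Tyro3 was 0.57 and did not pass the test (adjusted p = 0.0629), and Thbs1 rose by 1.33 (adjusted p = 0.0455). Tyro3 stood at 13.7 FPKM in 24 h replicate 3 and at 1.76 to 2.74 in the other 24 h libraries, against 1.32 to 2.14 before. Thbs1 stood at 215 FPKM in replicate 3 and at 7.94 to 20.3 in the others. Pros1, the other ligand of that receptor family, did not pass the test in any comparison (log2 difference 0.35, adjusted p = 0.0992 at 24 h).

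Msr1, encoding the class A scavenger receptor that takes up modified LDL, rose at both times. It stood at 4.10, 4.39, 5.10, 2.16 and 2.43 FPKM before, 23.0, 16.2, 10.4 and 56.1 at 24 h, and 17.1, 15.5, 20.9 and 11.7 at 8 weeks. All later libraries lay above all from before, with the widest spread at 24 h. Msr1 rose by 2.81 on the log2 scale at 24 h (SE 0.45, adjusted p = 0.00104) and by 2.34 at 8 weeks (SE 0.44, adjusted p = 0.00139). Its type I model (NM_001113326), which carries the cysteine-rich domain that type II lacks, had a share of Msr1 FPKM of 27.3% ± 7.88 in the group from before, 36.5% ± 6.25 at 24 h and 24.6% ± 11.98 at 8 weeks. No comparison of that share had an adjusted p under 0.05.

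Mrc1, encoding the mannose receptor, rose about as much at 24 h as at 8 weeks. It stood at 6.16, 7.21, 10.50, 5.97 and 5.64 FPKM before, 19.2, 14.1, 17.2 and 16.5 at 24 h, and 18.0, 13.7, 19.5 and 10.2 at 8 weeks. The lowest 8-week library lay just below the highest from before, and the other later libraries lay above all from before. The log2 fold change was 1.25 at both times (SE 0.24, adjusted p = 0.00306 at 24 h and 0.00146 at 8 weeks).

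Cd163, encoding the receptor for haptoglobin-haemoglobin complexes, was the lowest of the 10 genes in mean level in all 3 groups, and did not pass the test in any comparison. It stood at 0.321, 2.21, 6.64, 1.27 and 1.10 FPKM before, 2.42, 2.01, 0.360 and 0.479 at 24 h, and 2.36, 1.70, 4.96 and 2.65 at 8 weeks. The groups overlapped fully, and libraries from before differed among themselves more than the group means did. Its log2 difference from before was −0.80 at 24 h (SE 0.79, adjusted p = 0.525) and 0.49 at 8 weeks (SE 0.77, adjusted p = 0.646), so that changes of the size seen for Mrc1 were not detectable for Cd163 at this spread.

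Cd5l, whose protein macrophages secrete and which is known as a target of the oxysterol receptor LXR in mouse macrophages, rose steeply at 24 h and lay far lower at 8 weeks. It stood at 5.66, 2.27, 2.54, 1.27 and 1.24 FPKM before, 277, 285, 10.9 and 73.5 at 24 h, and 5.25, 6.77, 34.5 and 3.26 at 8 weeks. Every 24 h library exceeded every one from before, and the 24 h libraries differed by more than an order of magnitude. The 2 lowest, replicates 3 and 4, are the 24 h libraries with the least medulla list (19.6 and 117 FPKM, against 2220 and 4135), and the part of this in the Cd5l spread was not tested. The log2 fold change was 5.99 at 24 h (SE 1.04, adjusted p = 0.00169), the second largest fitted rise of the 14078 genes, 6.40 without replicate 3 (adjusted p = 0.000282) and 6.80 without replicates 3 and 4 (adjusted p = 0.000508).

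At 8 weeks Cd5l passed the test against before by a narrow margin, with a log2 fold change of 2.47 (SE 0.91, adjusted p = 0.0484). Without 8-week replicate 3 it was 1.05 (adjusted p = 0.337), and the groups overlapped. Against 24 h it was lower by a log2 difference of −3.52 (SE 1.01, adjusted p = 0.0292). That call was lost without 24 h replicate 2, or without 8-week replicate 1, 2 or 4, with adjusted p up to 0.0762 and log2 differences from −3.29 to −3.10.

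Cd68, on chromosome 11 from 69664213 to 69666170 (minus strand), showed the largest rise of the 10 genes at 8 weeks. It stood at 60.8, 43.0, 20.9, 20.6 and 25.8 FPKM before, 222, 186, 147 and 326 at 24 h, and 365, 550, 449 and 365 at 8 weeks. The 3 groups did not overlap. Cd68 rose by 2.75 on the log2 scale at 24 h (SE 0.35, adjusted p = 0.00035) and by 3.79 at 8 weeks (SE 0.37, adjusted p = 1.58e-05), and 8 weeks exceeded 24 h by 1.04 (SE 0.36), with an adjusted p of 0.0583.

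**Figure D3:**
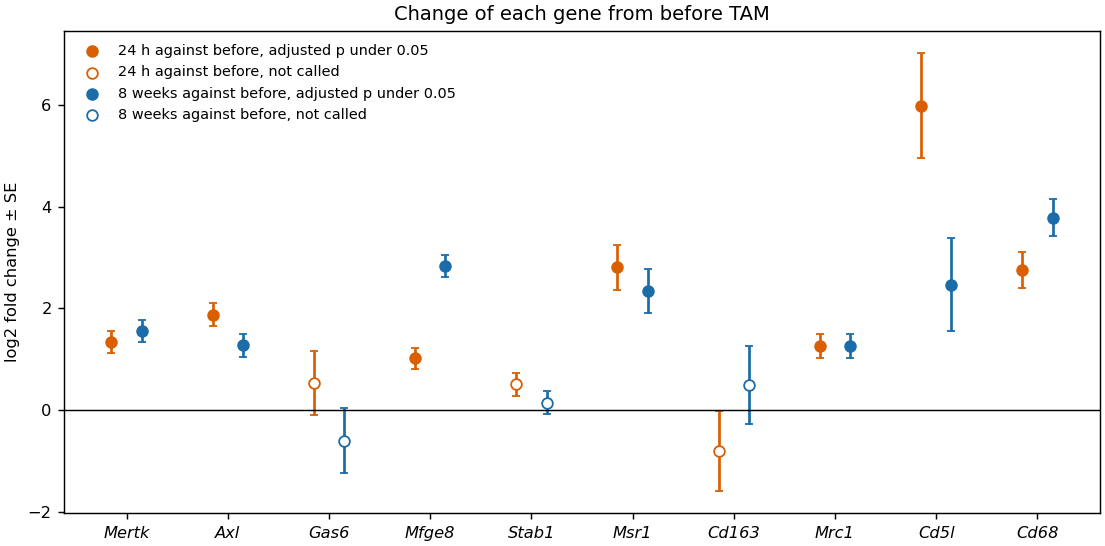
Log2 fold change of each of the 10 genes against before, with its standard error, at 24 h and at 8 weeks. Filled points passed an adjusted p of 0.05 and open points did not; Cd5l is highest at 24 h (5.99) and Cd68 at 8 weeks (3.79), while Gas6, Stab1 and Cd163 are open at both times.

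Counted by whether the FPKM of 2 groups overlapped, 7 of the 10 genes lay wholly above the libraries from before at 24 h, against 9.75% of all genes, and 5 of 10 did so at 8 weeks, against 18.1%. None lay wholly below, against 8.01% of all genes at 24 h and 26.5% at 8 weeks. Between 8 weeks and 24 h, Mfge8 and Cd68 lay wholly above (9.92% of all genes) and Axl wholly below (13.3%). By mean level, Gas6 (193 FPKM) and Mfge8 (91.5) led before, followed by Cd68 (34.2), Axl (19.6), Stab1 (14.2), Mertk (8.77), Mrc1 (7.10), Msr1 (3.64), Cd5l (2.60) and Cd163 (2.31). Between neighbours in that order the library ranges did not overlap for Gas6 and Mfge8, Mfge8 and Cd68, Stab1 and Mertk, and Mrc1 and Msr1, and overlapped for the others. At 8 weeks the order was Mfge8 (571), Cd68 (432), Gas6 (116), Axl (44.1), Mertk (23.3), Msr1 (16.3), Mrc1 (15.3), Stab1 (14.2), Cd5l (12.4) and Cd163 (2.92), and the ranges did not overlap for Cd68 and Gas6, Gas6 and Axl, and Axl and Mertk.

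The genes of resident-type macrophages in the set, Cd163, Mrc1 and Stab1, changed by 0.49, 1.25 and 0.14 on the log2 scale at 8 weeks, and only Mrc1 of the 3 was called. Of 10 further resident-type genes, 8 were listed (Vsig4 and Cd209f were not). Of these, 2 rose at 24 h and 4 at 8 weeks, against 12.6% and 20.5% of all genes. The median log2 changes of the 8 were 0.87 and 1.73. Pf4, encoding platelet factor 4, which tissue macrophages also express, rose from 5.18 ± 1.68 to 14.1 ± 3.13 FPKM at 8 weeks (adjusted p = 0.00148). Lyve1, a hyaluronan receptor of lymphatic endothelium and perivascular macrophages, rose from 2.68 ± 1.84 to 12.4 ± 1.62 FPKM (adjusted p = 0.00658). Cbr2 and Maf rose at 8 weeks as well (log2 fold change 1.48 and 0.89, adjusted p = 0.0286 and 0.0294).

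Of 11 genes of recruited, monocyte-derived macrophages, 2 rose at 24 h and 8 at 8 weeks, against 12.6% and 20.5% of all genes. The 24 h count was thus near the share over all genes. The median log2 changes of the 11 were 1.73 and 2.44. The 2 at 24 h were Plac8 (log2 fold change 2.26, adjusted p = 0.00447) and S100a4 (2.12, adjusted p = 0.043). The summed FPKM of the 11 was 360 in 24 h replicate 4 and 82.6 to 105 in the other 24 h libraries. Without 24 h replicate 3, 7 of the 11 rose at 24 h. Calls in either direction over all transcripts (not genes) at 24 h went from 12.7% to 18.6% without that library. Of the resident-type genes, 1 rose then, since Maf, with 0.99 in the fit of all libraries (adjusted p = 0.0319), came to 0.66 (adjusted p = 0.0716). Ccr2, the chemokine receptor that brings monocytes into tissue, stood at 2.16 ± 1.10 FPKM before, 4.61 ± 1.38 at 24 h and 14.4 ± 10.1 at 8 weeks. It rose at 8 weeks against before (log2 fold change 2.86, adjusted p = 0.000291) and against 24 h (1.74, adjusted p = 0.0194). Itgam, Plac8 and Itgal followed at 8 weeks, with log2 fold changes of 2.39, 2.29 and 1.65. Granulocytes share several of these genes, and the summed granulocyte list stood at 1829 FPKM in 8-week replicate 1 and at 13.4 to 29 in the other 8-week libraries; its part in these values was not tested. Whether the resident-type and recruited-type genes differed in their change was not tested.

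Genes of macrophages in general rose with the set. Of 15 such genes, 14 rose at 24 h and 15 at 8 weeks, against 12.6% and 20.5% of all genes. The summed FPKM of the 15 ran from 486 to 1240 before, 2729 to 4793 at 24 h and 5766 to 11026 at 8 weeks. Ctss, the lysosomal protease cathepsin S, rose by 4.13 on the log2 scale at 8 weeks (adjusted p = 7.81e-06), and Tyrobp, a signalling adaptor of myeloid receptors, by 3.64 (adjusted p = 1.09e-05). Adgre1, encoding F4/80, rose by 2.05 and Csf1r, the receptor for macrophage colony-stimulating factor, by 1.51 (adjusted p = 7.82e-05 and 0.00115). Fcgr1, an Fc receptor gene, rose by 3.08 at 24 h (adjusted p = 0.000108) and was lower at 8 weeks than at 24 h (log2 difference −1.15, adjusted p = 0.0192). The increases of Mertk, Axl and Mrc1 at 8 weeks lay between 1.25 and 1.56.

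Genes of the capsule and of fibroblasts moved with the set as well. Of 8 such genes, 5 rose and none fell at 24 h, and 7 rose and none fell at 8 weeks. Their summed FPKM ran from 148 to 435 before, 593 to 970 at 24 h and 989 to 1712 at 8 weeks. The shares of all genes called were 12.6% higher and 6.63% lower at 24 h, and 20.5% and 16.4% at 8 weeks. Lum and Dcn, which encode small proteoglycans of the collagen matrix, rose at 8 weeks by 3.11 and 2.63 on the log2 scale (adjusted p = 0.000154 and 0.000729). Fibroblasts also express Axl, Mfge8 and Mrc2, and the part of such cells in the values of these genes was not tested. Without 24 h replicate 3, 5 of the 8 rose at 24 h and Gli1 fell (−2.08, adjusted p = 0.00373).

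Each gene's FPKM was then set against that of Cd68 in the same library. Cd68 had the largest rise of the set at 8 weeks and was chosen with earlier results of these data known. A gene that rose less than Cd68, or not at all, has a lower ratio for that reason alone. The tests therefore cannot separate a gene's own change from that of Cd68. At 8 weeks the ratio was lower than before for Gas6 (log2 difference −4.32), Stab1 (−3.78), Mrc1 (−2.67), Axl (−2.59), Mertk (−2.41) and Msr1 (−1.56), each by a two-sided exact permutation test with an adjusted p of 0.0476 over 27 tests. For Stab1 the mean log2 ratio went from −1.13 ± 0.68 before (n = 5) to −3.49 ± 0.27 at 24 h (n = 4) and −4.92 ± 0.24 at 8 weeks (n = 4), with no overlap between groups. For Mrc1 it went from −2.17 ± 0.86 to −3.66 ± 0.50 and −4.84 ± 0.48. At 24 h the ratio was lower for Stab1 (−2.36), Mfge8 (−1.80) and Mertk (−1.44), at the same adjusted p. For Cd163 the log2 difference at 8 weeks was −2.90 (adjusted p = 0.0745).

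The size of these differences depended on the reference, and Cd68 rose more at 8 weeks than any gene of the macrophage list but Ctss. With Adgre1, Csf1r, Ptprc or the mean of the macrophage list in its place, none of the 27 differences passed the test, and the 8-week difference of Stab1 was −1.90, −1.37, −2.38 and −2.37. The 8-week difference of Mrc1 was −0.79 against Adgre1 and −0.25 against Csf1r. Mertk differed from Csf1r by 0.01, and Msr1 differed by 0.32 from Adgre1 and 0.85 from Csf1r. Mfge8, at −1.17 against Cd68 (adjusted p = 0.0571), stood at 0.71 against Adgre1, 1.24 against Csf1r, 0.23 against Ptprc and 0.24 against the list mean. Cd5l went from −1.93 against Cd68 (adjusted p = 0.0745) to 0.49 against Csf1r. The adjusted p of 0.0476 came from an exact permutation p of 0.0159, the smallest that 4 against 5 libraries allow. After adjustment a difference at that p passes only when enough of the 27 tests are as low. The loss of calls with another reference therefore cannot decide whether a difference was lost. Against Csf1r the lowest adjusted p of the 8-week differences was 0.0714, shared by Stab1 and Gas6 (lower) and by Mfge8 and Msr1 (higher). Against the list mean the lowest was also 0.0714, shared by Stab1, Gas6, Axl and Mrc1 (all lower).

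**Figure D4:**
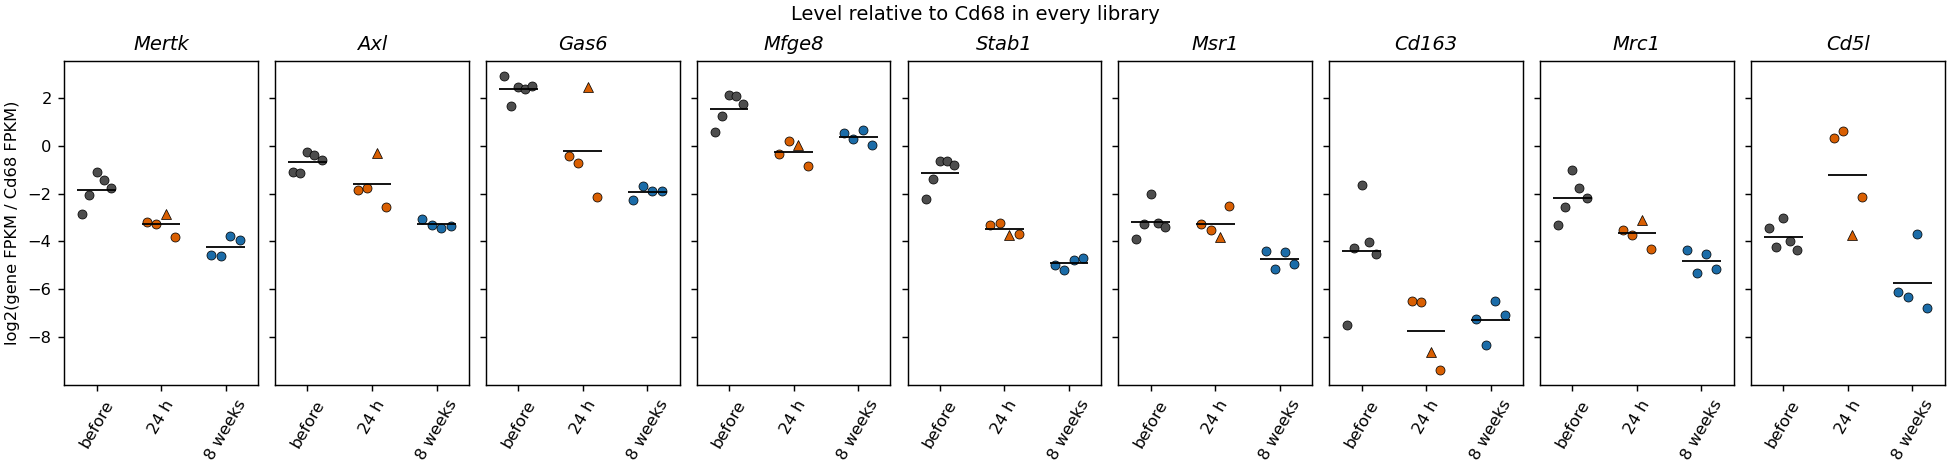
Log2 ratio of the FPKM of 9 genes to that of Cd68 in every library, with group means as lines and 24 h replicate 3 as a triangle. The Stab1 mean falls from −1.13 before to −4.92 at 8 weeks without overlap, while the Cd5l points at 24 h spread widely.

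Among 13 other scavenger receptors, 6 rose and none fell at 24 h, and 8 rose and none fell at 8 weeks. Of all genes, 12.6% rose and 6.63% fell at 24 h, and 20.5% and 16.4% at 8 weeks. Clec7a, encoding dectin-1, a receptor for fungal glucans, rose from 7.32 ± 3.73 to 145 ± 18.0 FPKM at 24 h and 122 ± 28.1 at 8 weeks (log2 fold change 4.33 and 4.21, adjusted p = 7.81e-05 and 7.11e-06). Cxcl16, whose membrane form binds phosphatidylserine and oxidised lipoprotein, rose by 1.99 and 2.13 (adjusted p = 0.000866 and 0.000221). Mrc2, a collagen uptake receptor, and Siglec1, the sialic acid receptor of tissue macrophages, rose at both times, and so did Colec12. Cd36, which takes up oxidised lipoprotein and long-chain fatty acids, rose at 8 weeks from 149 ± 37.6 to 425 ± 102 FPKM (adjusted p = 0.00539). Fat cells and endothelium also express Cd36, and the summed fat-cell list ran from 9.62 to 369 FPKM before and from 1196 to 3263 at 8 weeks; its part in the change was not tested. Scarb1, the HDL receptor of steroid-making cells, was called lower at 8 weeks than at 24 h (log2 difference −2.51, adjusted p = 0.0445). Its libraries spanned 96.6 to 3635 FPKM at 24 h and 192 to 476 at 8 weeks. That difference was not examined without 24 h replicate 3. Of the 3 uptake checkpoint genes, Sirpa, the phagocyte receptor for the protein of Cd47, rose by 0.99 at 24 h (adjusted p = 0.0223) and 1.21 at 8 weeks (adjusted p = 0.00398), and Cd47 and Cd24a did not pass the test.

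Of 8 regulators known to act on these genes, 4 rose and 1 fell at 24 h, and 7 rose and 1 fell at 8 weeks. Beside these counts, 12.6% of all genes rose and 6.63% fell at 24 h, and 20.5% and 16.4% at 8 weeks. Spi1, encoding PU.1, a transcription factor of the myeloid lineage, rose by 2.45 and 2.70 (adjusted p = 0.000837 and 0.00018). Nr1h3, encoding LXR alpha, which in mouse macrophages is known to induce Mertk and Cd5l, rose by 0.93 at 24 h (adjusted p = 0.0312) and 1.91 at 8 weeks (adjusted p = 0.000222), and was higher at 8 weeks than at 24 h by 0.98 (adjusted p = 0.0325). Without 24 h replicate 3 its rise at 24 h was larger, 1.20 (adjusted p = 0.000384). Its difference between the later times was not examined without that library. Pparg rose at 8 weeks (2.86, adjusted p = 0.00046). Il34, a ligand of the Csf1r protein, was the gene that fell (log2 change −1.38, adjusted p = 0.00925 at 24 h and −1.03, adjusted p = 0.0208 at 8 weeks).

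Promoter sequence was read for 9 of the 10 genes from RefSeq (GRCm38.p6) as the 250 bases before each gene's start in RefSeq. For 8 of the 9 these bases adjoin the transcript start in the deposited tables, and for Mertk they end 82 bases before it. The letters GAGGAA, the core bound by PU.1, were sought on both strands and were found in 6 of the 9 (Mrc1, Cd5l, Axl, Mfge8, Cd68 and Stab1), against 23.3% of 32851 promoters. Stab1, which was not called in the fit of all libraries, held a match. The AP-1 letters TGANTCA were found for Cd68 alone of the 9 (6.75% of all promoters), the E-box CACGTG for none (6.02%) and the LXR direct repeat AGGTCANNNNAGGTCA for none (0.0152%). A match is only a run of letters. The promoters of the genes with the largest rise at 8 weeks and at 24 h are shown with the GAGGAA match, or its reverse complement, in capitals; they are Cd68 (chr11:69666171-69666420, minus strand) and Cd5l (chr3:87357631-87357880, plus strand).
Cd68: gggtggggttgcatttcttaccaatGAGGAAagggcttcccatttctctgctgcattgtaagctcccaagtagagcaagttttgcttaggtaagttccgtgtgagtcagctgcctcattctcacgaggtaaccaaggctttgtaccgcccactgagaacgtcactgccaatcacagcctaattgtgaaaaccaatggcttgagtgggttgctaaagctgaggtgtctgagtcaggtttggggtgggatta
Cd5l: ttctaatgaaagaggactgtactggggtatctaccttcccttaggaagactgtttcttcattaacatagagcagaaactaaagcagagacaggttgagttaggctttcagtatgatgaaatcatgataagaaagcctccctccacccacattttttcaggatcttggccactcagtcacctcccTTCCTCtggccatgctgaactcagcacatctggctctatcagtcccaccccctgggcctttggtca

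For each gene, the genes with the most similar pattern were found by Pearson's r of log2 CPM (counts scaled to library size) over the 13 libraries, which share groups and depth, so r is a description. Cd68 ran with Tyrobp (r = 0.995), Ctss (0.994) and Arl11 (0.993). Msr1 ran with Tfec (0.979), Mertk with Ptafr (0.985), the platelet-activating factor receptor gene, and Mrc1 with Emp2 (0.943), Adgre1 (0.928) and Csf1r (0.926). Mfge8 ran with Mreg (0.973), Pianp (0.970) and Fam20c (0.970), and Cd5l with Vcam1 (0.941), an adhesion molecule of endothelium and macrophages. Gas6 ran with BC052040 (0.926), Dzip1l (0.926) and Gata4 (0.913), all 3 highest in 24 h replicate 3. Axl ran with Rasgef1b (0.969), Stab1 with Shmt2 (0.917), and Cd163 with Gpr133 (0.889) and Cbr2 (0.867).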

How the data were processed

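For each RefSeq transcript and library the authors deposited FPKM and an expected count (estimated reads), per the file headers. Their own table holds a q-value, a p-value and log2 ratio per transcript, as deposited. The kit keeps strand, per the labels' protocols. The submitters' processing notes name bcl2fastq 2.17, TopHat2 2.0.14 and mm10; which tool counted reads is not stated there. Counts over the 18738 transcripts listed for all groups were summed per gene, rounded and tested with edgeR 4.0.16 (R 4.3.3; quasi-likelihood, TMM, filterByExpr), fitting the 13 libraries together with no block. On simulated data with 200 changed genes the fit was tested before use. Ratios to Cd68 used FPKM with a pseudocount of 0.01. DESeq2 1.42.0 and limma 3.58.1 served as alternatives. Named are the 10 genes, up to 4 called genes of lowest p per other list and those against its majority, and the 3 most similar genes with a mean of at least 5 CPM; genes outside this were chosen after their values were seen. The result of 1 gene that the rule names is not reported here. The genes, lists and tests were chosen with earlier results of these data known. Expected counts split among transcript models and near-identical genes are uncertain.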

Additional observations from a re-analysis of the deposited data

Results flagged for a closer look

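Single libraries lay far from the rest of their group by Dixon's criterion in 5 of 45 gene or share groups examined. Chance gives about 1 in 20 for independent, normally distributed values. These groups share libraries and the distribution of their values was not tested, so the count is not set against that rate. Axl stood at 119.7 FPKM in 24 h replicate 3, with the next highest library at 61.73. Gas6 stood at 808.4 FPKM in the same library (next 162.5) and at 462.4 FPKM in before replicate 1 (next 144.8). That 24 h library held the most Gata4 and Wt1 of all, and before replicate 1 had the lowest summed fat-cell list of its group, at 9.62 FPKM. Cd5l stood at 34.51 FPKM in 8-week replicate 3 (next 6.765), which also held the most Timd4 (7.002 FPKM) and Marco (26.5 FPKM). The long Mfge8 model made up 68.95% of Mfge8 in the same library (next 55.07%).

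For 2 genes the change from before differed between the 2 later times, as tested by the edgeR contrast of 8 weeks with 24 h. Mfge8 had risen further at 8 weeks, by 1.814 on the log2 scale (adjusted p = 0.00124), and Cd5l was lower, with a log2 difference of −3.521 (adjusted p = 0.0292).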

How the results depend on the processing

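The 7 genes called at 24 h against before kept their call and direction under all 21 alternatives, which called 7 or 8. At 8 weeks 6 of the 7 (Mertk, Axl, Mfge8, Msr1, Mrc1 and Cd68) did so under all 22, and Cd5l was lost in 12, with adjusted p up to 0.337. Of all genes, 5193 were called at 8 weeks against before, and 8103 with limma voom quality weights or 7895 with all transcripts listed for both groups and only those 2 groups in the fit. At 24 h against before 2708 were called, and 5379 with the weights. For 8 weeks against 24 h 2923 were called, 973 with only those groups in the fit and 1782 to 4300 with 1 library left out. Of the 10 genes, 2 were called there, 4 with DESeq2 or the weights, 1 with only those groups and 1 to 3 with 1 library left out.

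The replicate block left 1312 genes called at 24 h against before and 1661 between the later times, with 1 of the 10 genes called in the latter. Libraries with the same number did not deviate together (correlation −0.125 to 0.277, and at most 1 of 4 libraries per comparison correlated best with its own number). No pairing by number was seen, but so few correlations cannot exclude one. Under the block Cd5l lost its call at 8 weeks against before (adjusted p = 0.185) and against 24 h (adjusted p = 0.0731), and no other call of the 10 genes changed.

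Relative to Cd68, 9 of 27 differences passed, and 0 did with Adgre1, Csf1r, Ptprc or the macrophage list mean as the reference, or without 24 h replicates 3 and 4. With 1 library left out 0 to 17 passed, 17 without before replicate 1 and 0 otherwise. Fewer libraries raise the smallest p the test can give. With any reference, that smallest p passes after adjustment only when enough of the 27 tests are as low. The 8-week difference reversed for Mertk against Csf1r (0.0111) and for Msr1 against Adgre1 (0.3216) and Csf1r (0.854), and differences that did not pass the test changed sign for Mfge8 against all 4 (0.23 to 1.24) and for Cd5l against Csf1r (0.49). Without a scaling factor the median of all genes shifted to −0.10 at 8 weeks against before and −0.12 against 24 h. The other causes were not tested.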
